A study of Homo sapiens with 2 samples.

Results

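The cytosolic translation elongation factors and their kinase were followed in RNA of HGC27 cells, a line established from a human gastric cancer. The genes were chosen by symbol, EEF1A1, EEF1A2, EEF1B2, EEF1D, EEF1G, EEF2 and EEF2K, after values of these same 2 libraries had been seen, so the differences below are a description. Of the 7 genes named, 6 had a value, among 28303 genes listed in both libraries, and the level of EEF1G was not analysed here. In the overexpression group, cells received the plasmid pcDNA3.1-linc01133, which carries the long non-coding RNA LINC01133. The control group received pcDNA3.1-control. Both were transfected with Turbofect, harvested after 48 h and labelled with the same passage range, and messenger RNA was captured on poly-T beads. The promoter that drives the insert, the share of cells transfected and the strand setting of counting are not stated in the labels. With 1 library in each group there is no replicate check on any difference, and no test, p-value or SD was computed. The question of the design was what LINC01133 overexpression does to the RNA levels of these cells.

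Elongation factors move the ribosome along a messenger RNA, a codon at a time. eEF1A, bound to GTP, delivers each aminoacyl-tRNA to the ribosome and leaves bound to GDP, and the eEF1B complex reloads it with GTP. eEF2, another GTPase, then shifts the tRNAs and the messenger RNA by a codon. EEF2K, a calmodulin-dependent kinase, phosphorylates eEF2 on a threonine and so slows elongation. Messenger RNAs of several of these factors, like those of ribosomal proteins, begin with a run of pyrimidines, the 5′ terminal oligopyrimidine (TOP) motif, through which the mTOR pathway controls their translation.

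LINC01133 itself was at 1.44 FPKM in the overexpression library, from 74 fragments, and at 0.0809 FPKM in the control library, from 4 fragments. FPKM relates the fragments of a gene to its exon length and to the depth of the library. The libraries held 16302581 counted fragments with overexpression and 15666629 in the control, with 23588 genes above 0 under overexpression and 21677 in the control. Of 10 gastric and epithelial markers with values, 2 passed a mean of 1 FPKM, and KRT18, MUC5AC and TFF2 were at 0 in both libraries. Their summed level was 5.64 FPKM with overexpression and 6.14 FPKM in the control. Of 6 mesenchymal markers 5 passed, with a sum of 325 FPKM under overexpression and 283 FPKM in the control. All 9 fibroblast markers passed, with a sum of 681 FPKM under overexpression and 638 FPKM in the control. Of their log2 ratios 4 were above 0 and 5 below, with a median of -0.004. They ran from 1.52 in POSTN, 0.87 in LUM and 0.82 in PDGFRA to -0.60 in THY1. After the trends on GC content and length described below were subtracted, they ran from -0.53 to 0.68, with a median of 0.08. Of 6 blood and endothelial markers with values 2 passed, with a sum of 2.85 FPKM under overexpression and 3.74 FPKM in the control, and CDH5 and KDR were at 0. The part of these markers in the results below was not tested.

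A first set of sequences is shown because EEF1A1 and EEF1A2 make nearly the same protein from different codons. The 2 coding sequences align over 462 residues, of which 428 are identical, or 92.6%. At the DNA level 78.1% of 1386 aligned bases are identical. Of the 303 differing bases, 252 are at the third position of a codon, and of the 428 identical residues 233 use another codon. The first 90 coding bases, from GENCODE 29 transcripts on GRCh38, are printed 5′ to 3′ on the coding strand, which is the minus strand for both genes. Capitals mark the bases that differ between the paralogues. EEF1A1 lies at chr6:73519937-73520026 and EEF1A2 at chr20:63497674-63497763.
EEF1A1: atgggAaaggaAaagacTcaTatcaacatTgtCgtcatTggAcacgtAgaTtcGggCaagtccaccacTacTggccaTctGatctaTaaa
EEF1A2: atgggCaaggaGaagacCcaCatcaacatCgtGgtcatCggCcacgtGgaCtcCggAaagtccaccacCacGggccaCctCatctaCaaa
All 17 differing bases in this window are at the third position of a codon, and 0 of its 30 residues differ. GC content of the window is 43.3% in EEF1A1 and 56.7% in EEF1A2. Over the whole coding sequence, the third position is G or C in 48.2% of codons of EEF1A1 and 89.0% of EEF1A2, while the other codon positions are so in 48.2% of EEF1A1 and 48.6% of EEF1A2. The other 4 measured genes ranged from near EEF1A1 to near EEF1A2, with 44.2% G or C at the third position in EEF1B2, 72.5% in EEF2K, 78.9% in EEF1D and 85.4% in EEF2.

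Start sites are shown because of the pyrimidine run. Windows from 10 bases before to 20 bases after RefSeq starts (GRCh38.p14), read on the transcribed strand only, were searched for a C within 5 bases of the start followed by at least 4 bases that are C or T. Capitals mark the run found. The windows lie at chr6:73521013-73521042 (minus strand) for EEF1A1, chr2:206159599-206159628 and chr2:206159885-206159914 (plus strand) for the upstream and downstream starts of EEF1B2, chr19:3985444-3985473 (minus strand) for EEF2 and chr16:22206268-22206297 (plus strand) for EEF2K.
EEF1A1 start: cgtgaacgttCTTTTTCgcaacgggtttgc
EEF1B2 upstream start: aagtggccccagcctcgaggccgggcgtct
EEF1B2 downstream start: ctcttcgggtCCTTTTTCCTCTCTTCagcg
EEF2 start: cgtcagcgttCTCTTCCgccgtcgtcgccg
EEF2K start: gcccgCTTCTgctcaacctagaccagcccc
The run is 7 bases in EEF1A1 and in EEF2, 16 bases at the downstream start of EEF1B2 and 5 bases in EEF2K. These letters are not in the window of the upstream EEF1B2 start. The EEF2K run lies wholly within the 10 bases before the annotated start, so RNA that begins at that start does not hold it. The other runs begin right after those 10 bases. With the EEF1G window, which holds none, 4 of 6 starts from 5 of the genes held the motif, or 66.7%. It was present at 58 of 80 starts of cytosolic ribosomal protein genes, or 72.5%, and at 7403 of 35093 RefSeq starts in all, or 21.1%. A match describes letters and does not show that a site is used. Entries for EEF1A2 and EEF1D were not used here.

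At the level of the group, no elongation factor differed by 2-fold in either direction, EEF2 and EEF1A2 were more than 1.5-fold lower with overexpression, and EEF1A1, EEF1B2, EEF1D and EEF2K lay closer to the control. All 6 genes passed a filter at a mean of 1 FPKM, which 11945 genes passed. Log2 ratios are those of FPKM + 1, overexpression over control, and understate the difference of low genes. At 2-fold, 0 of 6 were higher, against 1421 genes or 11.9% of all genes tested, and 0 of 6 were lower, against 53 genes or 0.444%. At 1.5-fold, 0 of 6 were higher, against 3199 genes or 26.8%, and 2 of 6 were lower, against 632 genes or 5.29%. With trends on GC content and length subtracted, as described below, 0 of 6 were 1.5-fold lower, against 327 of the 11913 genes fitted. The median log2 ratio was -0.17 over the 6 genes, 0.10 over all genes tested and -0.37 over the 339 genes with a mean of at least 100 FPKM.

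**Figure D1:**
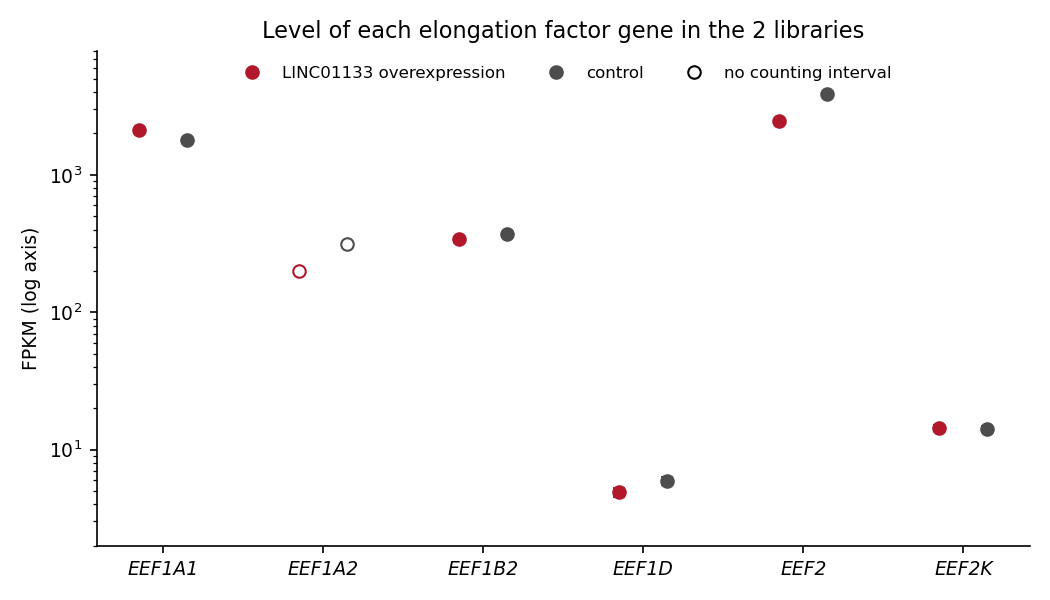
Level in FPKM, on a log axis, of each of the 6 elongation factor genes in the LINC01133 overexpression library (red, left point) and the control library (grey, right point). Bars are 95% Poisson intervals for counting error, mostly hidden by the points, and open points carry none. EEF2 and EEF1A1 have the highest levels in both libraries, and EEF1D lies lowest, at 4.88 FPKM with overexpression and 5.91 FPKM in the control.

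Among the factors that deliver aminoacyl-tRNA, the common and the tissue-restricted form of eEF1A lay on opposite sides of the control in the deposited values, while upper quartile scaling put both below it. EEF1A1 (ENSG00000156508, chr6:73515750-73523797, minus strand), the form found in nearly all tissues, was at 2123 FPKM (95% exact Poisson interval 2114 to 2132) with overexpression and 1803 FPKM (1795 to 1812) in the control. The ratio was 1.18 (95% Clopper-Pearson interval 1.17 to 1.18), a log2 ratio of 0.24 that turned to -0.18 when libraries were scaled to their upper quartile. It was 0.03 by median-of-ratios scaling and 0.02 by a trimmed mean of M values. With the GC content and length trends described below subtracted, it was 0.02. Of all genes tested, 57.1% had a lower deposited log2 ratio than EEF1A1. All such intervals describe counting error alone and treat every fragment as independent. No molecular identifiers separate amplified copies from independent molecules, so the intervals may be too narrow even for that error. EEF1A1 was the 10th most abundant protein-coding gene per length with overexpression and the 16th in the control.

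EEF1A2 (ENSG00000101210, chr20:63488012-63499322, minus strand), the form of adult muscle, heart and neurons, which some tumours also express, was at 200.6 FPKM with overexpression and 313 FPKM in the control. Its log2 ratio was -0.64, so the control level was 1.56 times the overexpression level. The values are not whole multiples of a fragment over the merged exon length, so they carry no counting interval. The gene ranked 122nd among coding genes with overexpression and 91st in the control. In bulk RNA, a lower level in each cell and fewer cells with that RNA cannot be told apart.

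Ratios of genes within a library do not depend on how the libraries are scaled. EEF1A1 stood at 10.6 times EEF1A2 per length with overexpression and at 5.75 times in the control. When length was that of the longest coding transcript in place of all exons, these ratios were 5.82 with overexpression and 3.16 in the control. EEF1A2 made up 8.63% of the summed eEF1A FPKM with overexpression and 14.8% in the control, while the sum was 2324 FPKM with overexpression and 2117 FPKM in the control. The ratio of the paralogues was thus 1.84 times as high with overexpression.

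Both measured exchange factors of eEF1B lay within 1.5-fold of the control. EEF1B2 (ENSG00000114942, chr2:206159585-206162928, plus strand), the subunit that catalyses GTP exchange on eEF1A, was at 339 FPKM (333 to 346) with overexpression and 368 FPKM (361 to 375) in the control. The ratio was 0.922 (0.898 to 0.947), a log2 ratio of -0.12. Of its exon bases, 17.4% overlap other annotated genes (NDUFS1, SNORA41, RF02271), and 16.4% overlap those on the same strand (SNORA41, RF02271). Its level is therefore uncertain, by an amount that was not tested.

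EEF1D (ENSG00000104529), a further exchange subunit, was at 4.88 FPKM (4.54 to 5.24) with overexpression and 5.91 FPKM (5.52 to 6.31) in the control. The ratio was 0.826 (0.748 to 0.912), a log2 ratio of -0.23 that turned to 0.29 once the GC content and length trends described below were subtracted. The level rests on 747 fragments with overexpression and 869 in the control, and 34.0% of exon bases overlap genes on the other strand (TIGD5, AC067930.2, AC067930.6). Without the strand setting, fragments of such genes cannot be told apart. EEF1B2 was 69.5 times EEF1D with overexpression and 62.3 times in the control, per length of all exons. By the length of the longest coding transcript these ratios were 30.8 with overexpression and 27.6 in the control. How the authors' counting treated the overlaps of EEF1D, and their part in these ratios, was not tested.

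The translocase was the most abundant factor and had the largest difference in FPKM of the 6 genes. EEF2 (ENSG00000167658, chr19:3976056-3985469, minus strand) was at 2466 FPKM (2454 to 2478) with overexpression and 3880 FPKM (3864 to 3895) in the control, a difference of -1414 FPKM. This is a ratio of 0.636 (0.632 to 0.640), or -0.65 as a log2 ratio. It ranked 9th among coding genes with overexpression and 8th in the control. Of all genes tested, 3.23% had a lower log2 ratio than EEF2, and 3.46% a lower one than EEF1A2.

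Per length, EEF2 was 1.16 times EEF1A1 with overexpression and 2.15 times EEF1A1 in the control. The ratio of EEF1A1 to EEF2 was therefore 1.85 times as high with overexpression. The proteins act in turn at every codon, but RNA ratios do not give protein ratios.

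EEF2K (ENSG00000103319, chr16:22206282-22288732, plus strand) was at 14.4 FPKM (13.7 to 15.04) with overexpression and 14.1 FPKM (13.4 to 14.8) in the control. The ratio of 1.02 (0.956 to 1.09) has 1 within its counting interval, so a difference was not detectable at this depth. Its log2 ratio of 0.03 turned to -0.16 by median-of-ratios scaling, -0.17 by a trimmed mean of M values and -0.36 by the upper quartile. Before the pseudocount, these scalings shift every log2 ratio downward, the first by 0.21, the trimmed mean by 0.21 and the upper quartile by 0.42. The substrate stood at 171.6 times the kinase per length with overexpression and at 275.6 times in the control. Of the exon bases of EEF2K, 8.83% overlap AC009034.1 on the other strand, and the part of that overlap was not tested.

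As a load on the libraries, the 6 genes took 2.44% of counted fragments (95% exact binomial interval 2.43% to 2.44%) with overexpression and 2.88% (2.87% to 2.88%) in the control. EEF1A2 entered with its nearest whole fragments. EEF2 took 0.993% with overexpression and 1.56% in the control, while EEF1A1 took 1.26% with overexpression and 1.07% in the control. EEF1A1 thus gave the most fragments with overexpression, and EEF2 the most in the control. Cytosolic ribosomal protein genes took 6.56% with overexpression and 8.43% in the control.

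**Figure D2:**
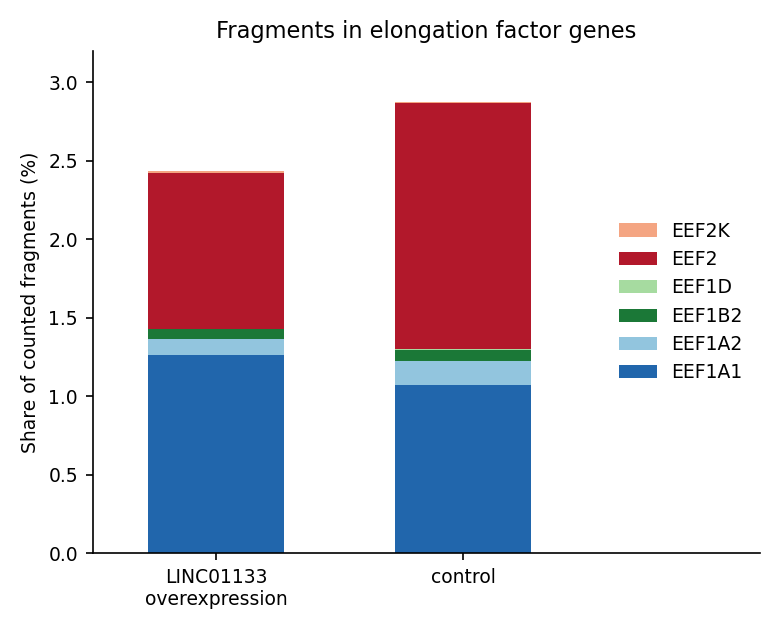
Share of all counted fragments, in percent, taken by each of the 6 elongation factor genes, stacked, in the LINC01133 overexpression library (left) and the control library (right). The stacks reach 2.44% with overexpression and 2.88% in the control, and the EEF2 segment spans 0.993% of fragments with overexpression and 1.56% in the control.

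Processed pseudogenes can take fragments of their parents, and EEF1A1 has many. Of 26 annotated pseudogenes with a value, 18 derive from EEF1A1, and 4 of the 26 reached 10 fragments in either library. EEF1A1P5 (chr9:133019486-133020874) was at 320 FPKM with overexpression and 266 FPKM in the control, from 7243 fragments with overexpression and 5792 in the control. Its ratio of 1.20 (1.16 to 1.24) lay beside the 1.18 of EEF1A1. The 1389 bases of this pseudogene match the EEF1A1 coding sequence at 1385 positions, or 99.7%, and 85.1% of its 50-base words occur in EEF1A1 transcripts, so its fragments and those of EEF1A1 may not be separable. EEF1A1P6 had 352 fragments with overexpression and 257 in the control, EEF1B2P3 had 323 with overexpression and 399 in the control, and EEF1A1P19 had 16 with overexpression and 17 in the control. Pseudogenes held 7960 fragments in all with overexpression and 6483 in the control.

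GC content split the elongation factor genes in the same way as the log2 ratio did. The genes with GC content of 46.1% to 50.2% in their longest coding transcript, EEF1A1, EEF1B2 and EEF2K, had log2 ratios of -0.12 to 0.24. EEF2, EEF1D and EEF1A2, at 59.9% to 66.4%, had log2 ratios of -0.65 to -0.23. The same slope ran through all genes when they were cut into 10 groups of near equal size by GC content. The median log2 ratio was 1.14 in the lowest group (26.9% to 38.7%), 0.39 in the fourth (43.6% to 46.2%), 0.18 in the fifth (46.2% to 49.0%) and -0.39 in the highest (62.3% to 83.6%).

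**Figure D3:**
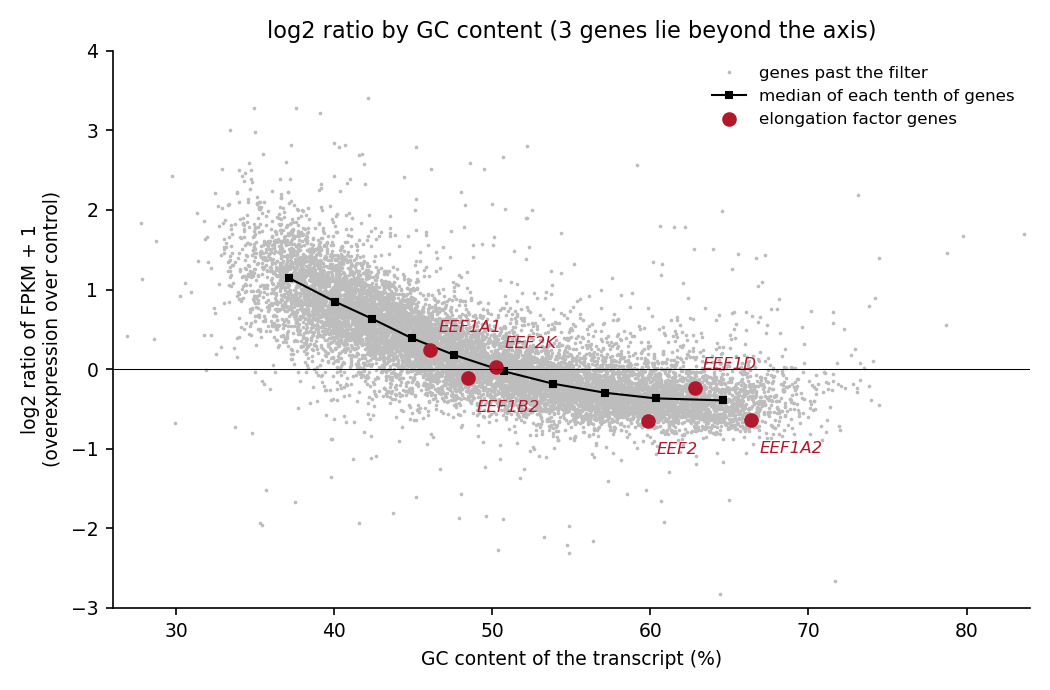
Log2 ratio of FPKM + 1, overexpression over control, against GC content of the transcript in percent for the genes past the filter (grey), with the median of each of the 10 GC groups (black squares) and the 6 elongation factor genes (red). Group medians run down from 1.14 to -0.39, and the red points follow the slope. A total of 3 genes lie beyond the vertical axis.

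The trends on GC content and length, fitted over 11913 genes, were then subtracted with the median over all genes kept. The trend alone was -0.45 at EEF2, where the log2 ratio was -0.65, and -0.55 at EEF1A2, where it was -0.64. After subtraction EEF2 was at -0.20, EEF1A2 at -0.09, EEF1B2 at -0.03, EEF1A1 at 0.02, EEF2K at 0.06 and EEF1D at 0.29. The 6 genes then had a median of -0.01, against 0.10 over all genes, with 3 above and 3 below 0. The share of genes with a lower value was 13.7% for EEF2, 23.8% for EEF1A2 and 74.1% for EEF1D.

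**Figure D4:**
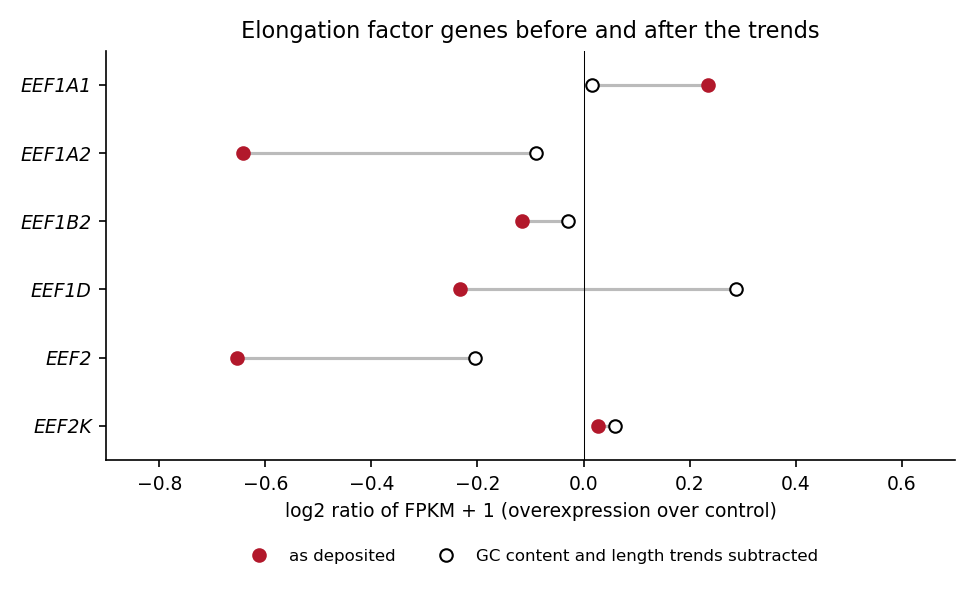
Log2 ratio of FPKM + 1, overexpression over control, of each elongation factor gene as deposited (filled) and after the trends on GC content and length were taken off (open). EEF2 lies at -0.65 and -0.20, EEF1A2 at -0.64 and -0.09, and EEF1D crosses 0, at -0.23 and 0.29.

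Subtraction also narrowed the contrasts of EEF1A1 with EEF1A2 and with EEF2, while those with EEF1D turned in sign. The log2 ratio of EEF1A1 exceeded that of EEF1A2 by 0.88 as deposited and by 0.11 after subtraction. It exceeded that of EEF2 by 0.89 as deposited and by 0.22 after subtraction. The log2 ratio of EEF1A1 minus that of EEF1D was 0.47 as deposited and -0.27 after subtraction. For EEF1B2 minus EEF1D the values were 0.12 as deposited and -0.32 after subtraction. Why the slope on GC content differs between the libraries was not tested, and with 1 library a group it cannot be told apart from the overexpression.

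Set beside other parts of the translation machinery, the elongation factors had a deposited median of -0.17. It lay between the -0.26 of 78 cytosolic ribosomal protein genes and the 0.13 of 51 protein-coding genes with symbols starting with EIF. These EIF genes are called initiation factors here, but they were taken by symbol alone. They include EIF5A and EIF5A2, which are also given in a list below. Of the ribosomal protein genes 0 were at least 2-fold higher and 1 was at least 2-fold lower, against 11.9% and 0.444% of all genes. At 1.5-fold 2 were higher and 16 lower, against 26.8% and 5.29%. The 16 became 6 after subtraction of the trends, against 327 of the 11913 genes fitted. Of the 51 initiation factors 5 were at least 2-fold higher and 0 lower, against 11.9% and 0.444% of all genes. With the trends subtracted the medians were -0.01 for elongation factors, -0.23 for ribosomal protein genes and 0.07 for initiation factors. None of these distances was tested.

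Genes that modify, recharge or regulate the elongation factors were read from 8 lists. Of 47 genes named 46 had values and 42 passed the filter, of which 6 were at least 2-fold higher, against 11.9% of all genes, and 0 at least 2-fold lower, against 0.444%. Their median log2 ratio was 0.07, near the 0.10 of all genes. At 1.5-fold 16 of the 42 were higher, against 26.8% of all genes, and 4 were lower, against 5.29%. After subtraction of the trends, 0 of the 42 were 2-fold higher, against 203 of the 11913 genes fitted, and the median was 0.05.

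**Figure D5:**
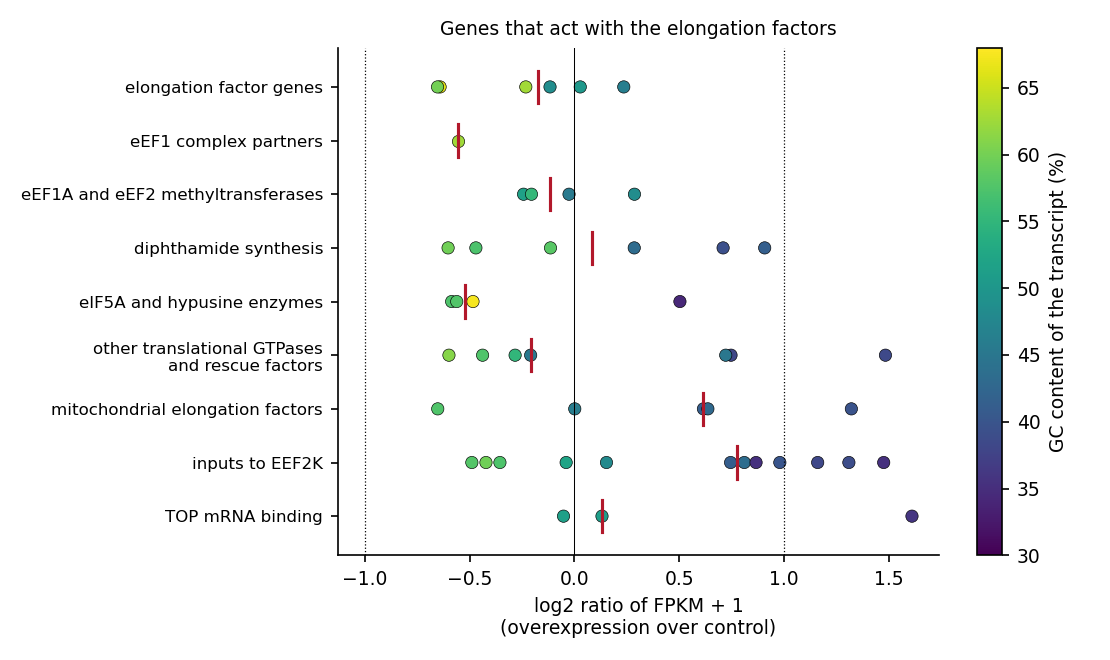
Log2 ratio of FPKM + 1, overexpression over control, of each gene past the filter, by list, with the elongation factor genes on top. Points are coloured by GC content of the transcript in percent, red bars are medians and dotted lines mark 2-fold. The 6 genes beyond 2-fold are ABCE1, GUF1, PRKAA1, CALM2, RPS6KB1 and LARP4, all to the right and all at low GC content.

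Of 2 partners of eEF1, 1 passed the filter. VARS1, the valyl-tRNA synthetase that binds eEF1, was at 95.9 FPKM with overexpression and 141 FPKM in the control, a log2 ratio of -0.56 that was -0.10 after subtraction. EEF1E1, a scaffold protein of the multisynthetase complex, did not pass the filter, with 50 fragments with overexpression and 6 in the control. Its ratio of FPKM was 8.01 (3.43 to 22.9), at levels of 1.46 FPKM with overexpression and 0.182 FPKM in the control. The GC content of EEF1E1 was 36.9%, in the range of the lowest GC group, where the median log2 ratio was 1.14. The trends were fitted to genes past the filter, so EEF1E1 has no value after subtraction.

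Among enzymes that modify the factors, no member that passed the filter was 2-fold apart in FPKM + 1. Over all genes tested, 11.9% were at least 2-fold higher and 0.444% lower. In FPKM itself DNAJC24, given below, was more than 2-fold higher. Of the methyltransferases of eEF1A and eEF2, 4 of 5 with values passed the filter. EEF1AKMT2, an eEF1A lysine methyltransferase, did not, and like EEF1E1 it is named after its values were seen. It had 46 fragments with overexpression and 7 in the control. Its ratio of FPKM was 6.32 (2.83 to 16.6), at levels of 0.668 FPKM with overexpression and 0.106 FPKM in the control. Its GC content was 41.0%, in the range of the second GC group, where the median log2 ratio was 0.85. EEF1AKMT2 too has no value after subtraction. METTL13, which methylates the eEF1A N terminus and a lysine, was at 22.8 FPKM with overexpression and 27.1 FPKM in the control, a log2 ratio of -0.24. EEF2KMT, which methylates eEF2, was at 7.001 FPKM with overexpression and 8.22 FPKM in the control. EEF1AKMT3, which methylates eEF1A, was at 2.01 FPKM with overexpression and 1.47 FPKM in the control, a log2 ratio of 0.29. EEF1AKMT1, another eEF1A methyltransferase, was at 2.93 FPKM with overexpression and 3.003 FPKM in the control, a log2 ratio of -0.03.

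Diphthamide, the modified histidine of eEF2 that diphtheria toxin attacks, is built by enzymes of which 6 of 7 passed the filter, with a median of 0.09. DNAJC24 was at 2.04 FPKM with overexpression and 0.622 FPKM in the control, a log2 ratio of 0.91. Its ratio of FPKM, without the pseudocount, was 3.29 (2.53 to 4.32). DPH3, which supplies electrons to the first step, was at 5.73 FPKM with overexpression and 3.12 FPKM in the control, a log2 ratio of 0.71. On the other side, DPH1 and DPH2, which form the enzyme of that first step, had log2 ratios of -0.60 and -0.47. After subtraction these values were 0.34 for DNAJC24, -0.11 for DPH3, -0.11 for DPH1 and -0.05 for DPH2, so that DPH3 turned in sign.

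eIF5A, which helps ribosomes through difficult stretches of peptide, and the enzymes of its hypusine modification had a median of -0.52 over 4 genes, or -0.09 after subtraction. EIF5A was at 83.6 FPKM with overexpression and 126 FPKM in the control, a log2 ratio of -0.59 and of -0.11 after subtraction. DHPS and DOHH, the enzymes that make hypusine, had log2 ratios of -0.56 and -0.48, which became -0.07 and 0.06 after subtraction. EIF5A2, the low paralogue, was at 2.42 FPKM with overexpression and 1.42 FPKM in the control, a log2 ratio of 0.50 that turned to -0.80 after subtraction. GC content was 57.3% in EIF5A and 34.3% in EIF5A2. As in eEF1A, the GC-rich paralogue had the lower deposited log2 ratio. After subtraction EIF5A had the higher log2 ratio of the pair.

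Among other translational GTPases and rescue factors, 1 of 7 was 2-fold higher, against 11.9% of all genes. ABCE1, which splits ribosomes after termination, was at 15 FPKM with overexpression and 4.72 FPKM in the control, a ratio of 3.18 (2.86 to 3.54). Its log2 ratio was 1.48 and 0.57 after subtraction. HBS1L, a GTPase that rescues stalled ribosomes, was at 4.75 FPKM with overexpression and 2.43 FPKM in the control, a log2 ratio of 0.75 that turned to -0.24 after subtraction. EFL1, an EEF2-like GTPase of ribosome maturation, had a log2 ratio of 0.72, and EEFSEC, the selenocysteine elongation factor, one of -0.60. After subtraction EFL1 was at 0.44 and EEFSEC at -0.09.

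Of the mitochondrial elongation factors 1 of 5 was 2-fold higher, against 11.9% of all genes. The median was 0.62, or -0.02 after subtraction. GUF1, the mitochondrial relative of the bacterial back-translocase, was at 12.3 FPKM with overexpression and 4.31 FPKM in the control, a ratio of 2.85 (2.50 to 3.26). Its log2 ratio was 1.32 and 0.52 after subtraction. TUFM, the mitochondrial counterpart of eEF1A, was at 260.0 FPKM with overexpression and 409 FPKM in the control, a log2 ratio of -0.65 and of -0.20 after subtraction. GFM1 and GFM2, the translocase and the recycling factor, had log2 ratios of 0.62 and 0.64, which became -0.02 and 0.16 after subtraction.

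The list of inputs to EEF2K had the highest deposited median of the 8, at 0.78 over 12 genes. In this list 3 genes were at least 2-fold higher, against 11.9% of all genes, and 0 lower, against 0.444%. PRKAA1, a catalytic AMPK subunit that promotes EEF2K activity, was at 17.96 FPKM with overexpression and 5.82 FPKM in the control. Its log2 ratio was 1.48. PRKAA2, another catalytic AMPK subunit, was at 1.99 FPKM with overexpression and 0.641 FPKM in the control. Its log2 ratio of 0.87 turned to -0.38 after subtraction. CALM2, a calmodulin gene, was at 36.0 FPKM with overexpression and 13.9 FPKM in the control, a log2 ratio of 1.31. RPS6KB1, an S6 kinase that inhibits EEF2K, was at 4.93 FPKM with overexpression and 1.65 FPKM in the control, and RPS6KA3, a further inhibiting kinase, was at 5.48 FPKM with overexpression and 2.28 FPKM in the control. Below 0 lay 4 of the 12 genes, against 5326 of the 11945 genes tested. RPS6KA1, an inhibiting kinase, had a log2 ratio of -0.49, and CALM3, a calmodulin gene, had one of -0.36 that turned to 0.08 after subtraction. RPTOR and MTOR, of the mTOR complex upstream of the S6 kinases, had log2 ratios of -0.42 and -0.04. Activating and inhibiting inputs thus stood on both sides of the control. After subtraction PRKAA1 was at 0.26, CALM2 at 0.55, RPS6KB1 at 0.19 and RPS6KA3 at 0.17. The median of the list was then 0.13, below the 0.27 of the TOP binding list.

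Of 3 proteins that bind TOP messenger RNAs or their tails, LARP4 alone was 2-fold higher, against 11.9% of all genes. It was at 13.2 FPKM with overexpression and 3.65 FPKM in the control, a log2 ratio of 1.61 and of 0.43 after subtraction. LARP1, which caps the TOP end of messenger RNAs, was at 67.5 FPKM with overexpression and 70.0 FPKM in the control, a log2 ratio of -0.05. PABPC1, the poly(A) binding protein and itself a TOP gene, was at 245 FPKM with overexpression and 224 FPKM in the control, a log2 ratio of 0.13.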

How the data were processed

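RNA-seq values of 2 libraries were used as deposited by the authors, 1 value per gene. The unit is not named in the labels. The deposited values were read as FPKM because, multiplied by merged exon length in GENCODE 29, 93.2% with overexpression and 92.9% in the control fell within 0.02 of a whole fragment, among genes above 0. That step gave depth and fragments. The tools named per the submitters' processing notes are HISAT2 2.1.0, Bowtie2 2.2.3 and HTSeq 0.6.0, on GRCh38. Their roles and the annotation release are not given in the sources used here.

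Log2 ratios used a pseudocount of 1 FPKM and a filter at a mean of 1 FPKM. With 1 library a group, thresholds of 2-fold and 1.5-fold stood in for tests. Genes with values on whole fragments carry 95% exact intervals. GC content and length are those of the longest coding transcript, known for 99.7% of genes tested, and lowess with a span of 0.3 gave the trends. Identifiers matched a symbol for 28109 of 28303 genes. The steps were tested on simulated data. Python 3.11.15, numpy 2.4.6, pandas 2.3.3, scipy 1.17.1, statsmodels 0.14.6 and matplotlib 3.10.9 were used.

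The members and lists were chosen with earlier results of these data known. Named genes were the members, up to 4 genes past the filter of each list by absolute log2 ratio, marker genes at 0, pseudogenes with at least 10 fragments and the 3 coding genes nearest to EEF1A1, EEF2 and EEF2K. EEF1E1, EEF1AKMT2, PRKAA2 and the inputs to EEF2K below 0 were added once their values were known. Some marker genes that meet the rule are given only in sums. Alternatives were other scalings, pseudocounts, filters and thresholds, trend subtraction, pseudogene fragments and other denominators. Coding genes alone and transcript length were added after seeing the data. A further sequence is not reported here.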

Additional observations from a re-analysis of the deposited data

How the results depend on the processing

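The count of elongation factors at least 2-fold lower was 0 as deposited and 2 with upper quartile scaling or at 1.5-fold, EEF2 and EEF1A2 in both cases. It stayed 0 under the other 6 settings (other scalings, pseudocount, filters and trends) and with coding genes alone, and the count higher was 0 under all. With trends subtracted, 0 were 1.5-fold lower, against 327 of the 11913 genes fitted. Genes at least 2-fold higher numbered 1421, and 653 with upper quartile scaling, 2244 with a pseudocount of 0.1 FPKM, 203 with trends subtracted, 656 with a filter at 5 FPKM and 3199 at 1.5-fold. Genes at least 2-fold lower numbered 53, and in the same order 506, 127, 91, 10 and 632, with 111 by median of ratios, 117 by trimmed mean of M values, 109 without a filter and 5 among coding genes. The share of fragments was 2.48% with overexpression and 2.92% in the control with pseudogenes added, and 2.71% and 3.21% without mitochondrial and ribosomal RNA genes. Over their alternatives, log2 ratios ran from -0.18 to 0.24 for EEF1A1, -1.06 to -0.09 for EEF1A2, -0.54 to -0.03 for EEF1B2, -0.59 to 0.29 for EEF1D, -1.07 to -0.20 for EEF2 and -0.36 to 0.06 for EEF2K. The cause of these shifts was not tested. No paired analysis was possible because there was 1 library in each group, and no library could be left out. Depth limits EEF1D and EEF2K most, and the depth-based intervals leave out variation between cultures.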

Other observations

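Protein-coding genes nearest to 3 of the factors were found by Euclidean distance of log2(FPKM + 1) over the 2 libraries, a likeness over 2 points. Nearest to EEF1A1 was the mitochondrial gene MT-ND3, at 1839 FPKM with overexpression and 1808 FPKM in the control, a distance of 0.207, followed by MT-ND5 and by the glycolytic gene GAPDH, which was at 1681 FPKM with overexpression and 2305 FPKM in the control. Nearest to EEF2 was RPS2, a ribosomal protein gene, at 2099.6 FPKM with overexpression and 3081 FPKM in the control, a distance of 0.405, followed by MT-ATP6 and MT-CYB. RPS2 had a log2 ratio of -0.55 and GC content of 62.5%, against -0.65 and 59.9% in EEF2. Nearest to EEF2K was CORO2A, at 14.5 FPKM with overexpression and 14.0 FPKM in the control, followed by ZCCHC24 and by the cell cycle kinase CDK2, at 14.7 FPKM with overexpression and 13.9 FPKM in the control.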
